A study of Homo sapiens with 6 samples.

Results

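The complement and coagulation cascade genes described here are 60 of the 16279 genes in the deposited count table. They were chosen by their KEGG annotation, as every gene that the table assigns to the complement and coagulation pathway (hsa04610), less the 3 integrins in it (ITGAM, ITGAX and ITGB2). The pathway itself was selected on the Control against rhChemerin values of these same libraries, so its counts and medians between the groups are a description, with no test of the list, and support nothing beyond the values given. The cells were 12Z, an established line of human endometriotic epithelial cells, which are epithelial cells of endometrium growing outside the uterus. RNA was sequenced from untreated cells (Control, labelled NC, n = 3) and from cells of the same line that received recombinant human chemerin (rhChemerin, n = 3), which the study's methods give as the Glu21 to Ser157 form at 10 ng/mL for 48 h. All 6 libraries came from 1 cell line with no genetic change named in the labels. The labels call the 3 libraries of each group biological replicates and do not say how they were grown or collected, so the p-values measure the spread between these libraries only.

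Complement is a chain of secreted proteases that ends in cleavage of C3 and in pores in the target membrane, and membrane-bound and soluble regulators hold it in check on the body's own cells. Coagulation runs in parallel from tissue factor or from contact activation to thrombin and fibrin, and the plasminogen activators start the plasmin-driven removal of fibrin and matrix, which serpins restrain. Chemerin, encoded by RARRES2, is secreted as an inactive precursor that serine proteases of the coagulation and fibrinolytic cascades can activate. The liver makes most of these proteins for the blood, while endometrial cells make a part of them locally.

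Whole-series facts that bear on the members were as follows. Library totals ran from 35430881 to 38341643 gene counts. TMM normalization factors, edgeR's correction for the make-up of a library, lay between 0.973 and 1.05 in 5 libraries and at 0.898 in rhChemerin replicate 3, which also had the lowest mean correlation with its own group (Pearson's r of log2 CPM across genes 0.975, against 0.979 to 0.993 for the others). The next lowest correlation was that of rhChemerin replicate 1 (0.979). Because rhChemerin replicate 3 stood apart, values with and without it are given for many members, though not for every member that it moved. Of the epithelial markers, KRT8, KRT18 and KRT19 were abundant in both groups (820 ± 82.7, 608 ± 46.0 and 295 ± 15.9 FPKM in Control and 917 ± 46.9, 618 ± 25.1 and 325 ± 44.3 in rhChemerin, mean ± SD, n = 3). After TMM scaling, KRT8 and KRT19 were higher in rhChemerin without overlap, while KRT18 overlapped. EPCAM and CDH1 were low and lower without overlap in rhChemerin (0.599 ± 0.210 and 0.310 ± 0.0719 FPKM against 0.196 ± 0.0764 and 0.129 ± 0.0625). MUC1 was at 12.7 ± 2.20 against 7.85 ± 1.73 FPKM, and its groups overlapped after TMM scaling. Of the 6 stromal markers, COL1A1 and LUM were also abundant (1042 ± 84.9 and 115 ± 12.2 FPKM in Control, 965 ± 221 and 107 ± 45.8 in rhChemerin) and overlapped. THY1 and DCN overlapped too, at 51.3 ± 7.33 and 18.6 ± 9.73 FPKM in Control and 50.2 ± 3.39 and 22.7 ± 13.2 in rhChemerin. PDGFRA was higher without overlap (1.55 ± 0.187 against 2.42 ± 0.585 FPKM). PDGFRB had a lower mean in rhChemerin, with overlap (19.6 ± 2.60 against 12.1 ± 7.21 FPKM). The part of these marker differences in the members' values was not tested. Among markers of cells that supply complement and clotting proteins in the body, the hepatocyte list summed to 0.377 to 0.636 FPKM in Control and 0.117 to 0.381 in rhChemerin, with ALB at no more than 0.0124 FPKM in any library. The 4 leukocyte markers with a row summed to 37.4 to 51.9 and 6.86 to 21.5 FPKM. Nearly all of that was CD14, while PTPRC, which marks leukocytes as a class, stayed at or under 0.0535 FPKM. The endothelial list summed to 1.21 to 1.50 and 0.951 to 1.25 FPKM, most of it KDR, with PECAM1 at or under 0.0386 FPKM. The platelet list was almost wholly ITGA2B, at 2.37 to 3.05 FPKM in Control and 0.617 to 1.57 in rhChemerin.

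Detection differed widely within the pathway. Of the 60 members, 39 had a mean count of at least 20 over the 6 libraries, 11 had a mean from 1 to under 20, and 10 had a mean under 1. The 10 members under 1 were A2M, C4BPA, CFHR3, CR1, F10, F2, KLKB1, MASP2, SERPINA5 and SERPINC1, with 0 to 4 counts in a library. They include prothrombin (F2), factor X (F10), antithrombin (SERPINC1) and plasma kallikrein (KLKB1), proteins that circulate in blood. The 11 members from 1 to under 20 included C4BPB, C8G, CR1L, F2RL3, F5, F7, FGB, MASP1, PROC and SERPIND1, with 0 to 27 counts. The weakest of the 39 was SERPINF2 at a mean of 20.2 counts, and the nearest member below that line was C8G at 15.5. Both C4 genes (C4A and C4B) are near-identical copies among which reads can be split wrongly, so their separate values are uncertain. Some members also overlap another gene on the same strand, such as CFI (1562 of 4875 exon bases, AC126283.2), CD59 (629 of 10358, AL049629.2), SERPINB2 (547 of 2748, SERPINB10) and VTN (329 of 2427, AC002094.3).

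edgeR's filter on low counts passed 41 members, the 39 above with C8G and PROC, and left 19 untested. PROC passed through the Control group alone, reaching the filter's level in 3 Control and 0 rhChemerin libraries, and so had to differ between the groups. THBD reached it in 2 Control and 3 rhChemerin libraries, and C8G, FGG and SERPINF2 in 3 and 2.

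By level (FPKM, read counts scaled by gene length and library total, mean ± SD, n = 3), C1R stood at 425 ± 69.0 in Control, C3 at 249 ± 36.0, SERPING1 at 151 ± 11.3, CLU at 141 ± 10.9 and C1S at 119 ± 9.68 FPKM. In Control, all C1R libraries lay above those of C3, all C3 libraries above those of SERPING1 and all CLU libraries above those of C1S, whereas SERPING1 and CLU overlapped.

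With edgeR's quasi-likelihood test and Benjamini-Hochberg adjustment over all 13311 genes tested, 0 of the 41 members had an adjusted p under 0.05, beside 4 genes of all tested (0.0301%). Without adjustment, 11 members were lower at p under 0.05 and 5 were higher, beside 11.4% of all genes in each direction. The 11 include PROC, which passed the filter through the Control group alone. DESeq2, the tool of the study, called 8 of 43 members lower (BDKRB1, BDKRB2, C3, CFB, CLU, F2RL2, VTN and VWF) and 3 higher (CD55, CD59 and TFPI), beside 5.47% and 3.90% of all genes. These calls used an adjusted p under 0.05 alone, whereas the study also required an absolute log2 fold change above 1. Of the members called, only F2RL2, VTN and VWF passed that too (DESeq2 log2 fold changes -1.54, -1.12 and -1.97). limma on log2(FPKM + 1) called 4 members (BDKRB2, C3, CLU and F2RL2), beside 1.34% of all genes, and 0 on log2(FPKM + 0.1), where 23 genes were called in all. The calls turned on single libraries. Without rhChemerin replicate 1, edgeR called 10 members (BDKRB2, C2, C3, CD59, CLU, PLAUR, SERPINB2, TFPI, VTN and VWF), beside 6.24% of all genes. Without rhChemerin replicate 3 it called 7 (BDKRB1, BDKRB2, C3, CD59, CLU, F2RL2 and VTN), beside 3.07%. With any of the other 4 libraries left out it called 0, and DESeq2 then called between 5 and 8, beside 2.23% to 5.04% of all genes.

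For 13 of the 41 members (31.7%, beside 16.0% of all genes), every rhChemerin library lay below every Control library, without overlap. They were BDKRB1, BDKRB2, C2, C3, C3AR1, CD46, CFB, CLU, F2RL2, PROC, SERPING1, VTN and VWF. PROC is among them, though it passed the filter through the Control group alone. With a mean count of at least 20 required, the number was 12, beside 16.0% of all genes. The groups did not overlap in the higher direction for 3 members (7.32%, beside 16.5% of all genes), namely CD55, CD59 and TFPI. Scaled by library size alone, without TMM, 16 members were lower and 3 higher without overlap, beside 25.2% and 7.35% of all genes. Over the 41 members the median log2 fold change (rhChemerin minus Control) was -0.34, with 29 negative and 12 positive, beside a median of 0.012 over all genes, of which 48.3% were negative. Lower values were also more frequent among weakly counted genes as a whole. The median under 100 mean counts was -0.66 for 11 members and -0.44 for all genes, and from 100 to under 1000 it was -0.72 for 5 members and -0.059 for all. From 1000 to under 5000 it was 0.042 for 16 members and 0.054 for all, and at 5000 or more it was -0.34 for 9 members and 0.15 for all. That scaling also shifted the median of all genes to -0.12 and that of the members to -0.46.

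**Figure D1:**
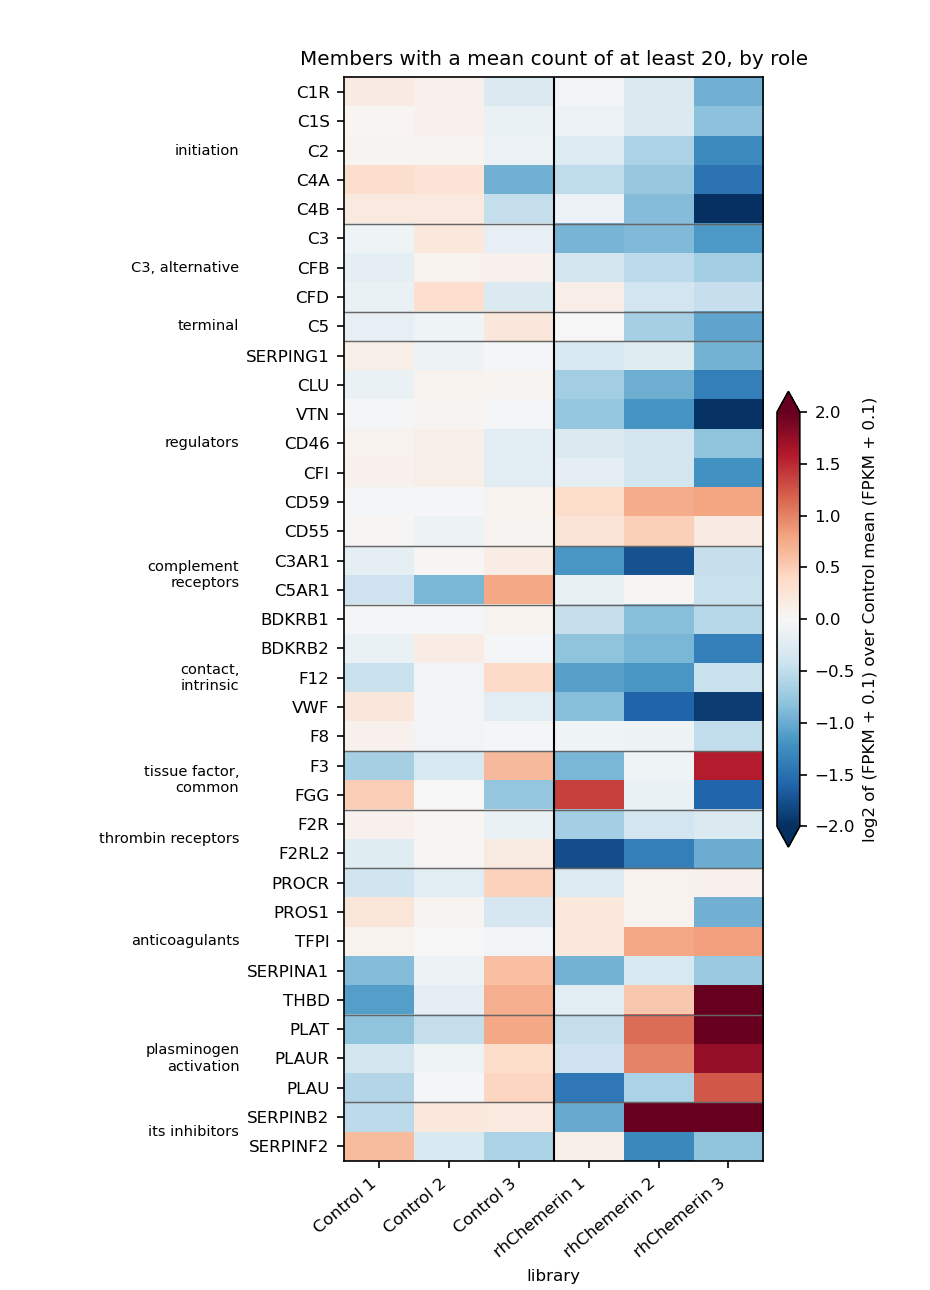
Level of 37 members with a mean count of at least 20 (rows, grouped by role) in each library (columns), as the log2 of (FPKM + 0.1) over the Control mean (FPKM + 0.1), with the colour scale ending at -2 and 2. Rows from C1R to VWF are mostly blue in the rhChemerin libraries, apart from CD59 and CD55, while SERPINB2, PLAT, PLAUR, F3 and THBD are red in rhChemerin replicate 3.

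Of the complement initiation members, C1R and C1S, the proteases of the C1 complex, had the highest RNA levels. The C1q genes are not among the members. C1R was at 476, 453 and 347 FPKM in the Control libraries 1 to 3 and at 409, 347 and 218 in the rhChemerin libraries 1 to 3. C1S, which C1r activates, was at 122, 127 and 108 against 110, 97.6 and 67.3 FPKM. Both overlapped between the groups, were lowest in rhChemerin replicate 3 and had log2 fold changes of -0.27 (SE 0.21) and -0.26 (SE 0.15), which became -0.088 and -0.11 without that library. C2, the protease that joins C4b in the classical C3 convertase, was at 12.4, 12.4 and 11.05 against 9.89, 7.65 and 4.91 FPKM, and its groups did not overlap (log2 fold change -0.56, SE 0.20, edgeR adjusted p = 0.171). Its value without rhChemerin replicate 3 was -0.37. Part of the C2 gene (1820 exon bases) is shared with the readthrough gene AL645922.1, and so are 2249 bases of CFB. C4A and C4B, summed because of their likeness, were at 15.1, 14.6 and 7.50 FPKM in Control and 9.96, 6.99 and 3.63 in rhChemerin, with Control replicate 3 inside the rhChemerin range. All 5 tested members of this group had a negative log2 fold change, with a median of -0.56.

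C3, the component on which all complement routes converge (chr19:6677704-6730562, minus strand, GRCh38), stood at 235, 290 and 222 FPKM in Control and at 131, 134 and 112 in rhChemerin. The rhChemerin libraries lay within a narrow band below all 3 Control libraries. Mean levels were 249 ± 36.0 and 126 ± 11.9 FPKM, a log2 fold change of -0.85 (SE 0.12, edgeR adjusted p = 0.0692), and the value stayed between -0.93 and -0.74 with any 1 library left out. Over the other settings tried, its adjusted p ran from 4.62e-08 with DESeq2 to 0.359. CFB, which pairs with C3b to form the alternative-pathway convertase, was at 58.3, 68.9 and 70.1 against 50.9, 45.7 and 40.4 FPKM, also without overlap (log2 fold change -0.40, SE 0.10, edgeR adjusted p = 0.104, from 0.0166 with DESeq2 to 0.377 over the other settings). CFD, the protease that cleaves factor B, was weak at 2.11 ± 0.523 and 1.81 ± 0.447 FPKM and overlapped. C3 relative to C1R, both per length, was 0.495, 0.639 and 0.639 in Control and 0.320, 0.387 and 0.516 in rhChemerin. The ratios overlapped, since rhChemerin replicate 3 lay above Control replicate 1. Of the terminal components C5 was at 0.796 ± 0.132 and 0.529 ± 0.234 FPKM and overlapped, and C8G had 5 to 27 counts.

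The complement regulators lay in both directions. Among the soluble ones, clusterin (CLU, chr8:27596917-27615031, minus strand), which keeps the terminal complex out of membranes, was at 128, 148 and 146 FPKM in Control and at 87.0, 71.5 and 54.5 in rhChemerin. No library overlapped, with a log2 fold change of -0.87 (SE 0.14, edgeR adjusted p = 0.0707, from 7.55e-06 with DESeq2 to 0.359 over the other settings). Vitronectin (VTN, chr17:28367276-28373091, minus strand), which binds the terminal complex and is also an adhesion protein of the matrix, was at 63.5, 68.0 and 63.9 FPKM in Control, a close group. It was at 37.9, 28.7 and 16.5 FPKM in rhChemerin (log2 fold change -1.12, SE 0.23, edgeR adjusted p = 0.0826, from 0.00025 with DESeq2 to 0.359). Without rhChemerin replicate 3 the log2 fold change of VTN was -0.89, so the difference did not rest on that library alone. SERPING1, the C1 inhibitor that also blocks factor XIIa and kallikrein, was at 164, 141 and 149 against 123, 128 and 78.6 FPKM. Its groups did not overlap, but the log2 fold change moved from -0.34 (SE 0.16, edgeR adjusted p = 0.242) to -0.19 without rhChemerin replicate 3. CFI, the protease that degrades C3b, was at 35.6 ± 4.42 and 24.7 ± 8.38 FPKM. Its groups overlapped, and rhChemerin replicate 3 was its lowest library.

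The membrane-bound regulators differed among themselves. CD46, a cofactor for cleavage of C3b and C4b, was at 60.8, 63.1 and 50.4 FPKM in Control and at 47.6, 45.1 and 33.4 in rhChemerin, lower without overlap (log2 fold change -0.35, SE 0.13, edgeR adjusted p = 0.182). CD59, the anchored protein that stops assembly of the membrane pore, was at 22.6, 22.3 and 24.2 FPKM in Control and at 29.6, 38.8 and 40.1 in rhChemerin. All 3 rhChemerin libraries lay above Control (log2 fold change 0.79, SE 0.15, edgeR adjusted p = 0.0752, from 0.000263 with DESeq2 to 0.359), and the value was 0.65 without rhChemerin replicate 3. CD55, which speeds the decay of C3 convertases, was at 9.57, 8.77 and 9.79 against 11.3, 13.02 and 10.6 FPKM, a smaller difference in the same direction (log2 fold change 0.44, SE 0.11, edgeR adjusted p = 0.103, from 0.0178 with DESeq2 to 0.377). Summed per length over the 12 regulators, which CLU and SERPING1 led in Control, the level was 497, 501 and 484 FPKM in Control and 378, 360 and 253 in rhChemerin.

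Of the anaphylatoxin receptors, C3AR1 (receptor for C3a) was at 0.695, 0.826 and 0.914 FPKM in Control and at 0.306, 0.174 and 0.559 in rhChemerin, from 22 to 115 counts. The groups did not overlap, and the log2 fold change was -1.07 (SE 0.46, edgeR adjusted p = 0.220), or -1.67 without rhChemerin replicate 3. C5AR1, the C5a receptor, was at 0.780 ± 0.555 and 0.676 ± 0.123 FPKM with full overlap. Both receptors are abundant on leukocytes, and the leukocyte list was lower in rhChemerin as given above through CD14, with PTPRC near 0 throughout. The part of other cells in these values was not tested, and in bulk RNA fewer cells of a type and less RNA per cell cannot be told apart.

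**Figure D2:**
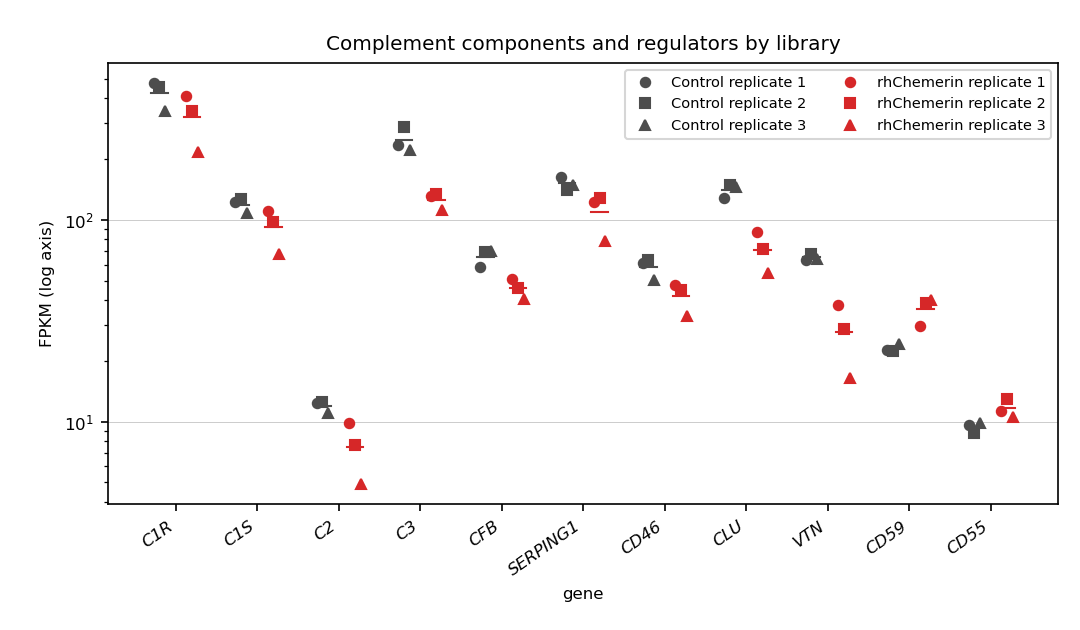
FPKM (log axis) of 11 complement genes in each library, with Control in grey, rhChemerin in red, a marker shape for each replicate number and a line at each group mean. C3, CFB, CLU, VTN, C2, SERPING1 and CD46 show no overlap with rhChemerin lower, CD59 and CD55 show none with rhChemerin higher, and C1R and C1S overlap.

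On the contact and kinin side, both bradykinin receptors were lower. BDKRB2 (chr14:96204679-96244166, plus strand), the constitutive receptor, was at 14.9, 18.2 and 16.0 FPKM in Control and at 9.31, 8.63 and 6.28 in rhChemerin. Every rhChemerin library lay below Control (log2 fold change -0.90, SE 0.13, edgeR adjusted p = 0.0692, from 3.20e-06 with DESeq2 to 0.359). BDKRB1, the receptor that inflammation induces, was the more abundant, at 80.4, 80.0 and 86.1 against 59.5, 45.5 and 55.2 FPKM, and it did not overlap either (log2 fold change -0.49, SE 0.12, edgeR adjusted p = 0.103, from 0.0117 with DESeq2 to 0.377). BDKRB2 and BDKRB1, which lie next to each other, share 479 and 376 exon bases with AL355102.2 on the same strand. VWF, the platelet-tethering carrier of factor VIII, was weak, with 112 to 159 counts in Control and 13 to 64 in rhChemerin. It was at 0.508, 0.404 and 0.352 FPKM in Control and 0.189, 0.0718 and 0.0394 in rhChemerin. Its groups did not overlap, and its log2 fold change of -1.97 (SE 0.52, edgeR adjusted p = 0.117, from 0.00478 with DESeq2 to 0.377) was -1.61 without rhChemerin replicate 3. VWF is made by endothelial cells and megakaryocytes. The endothelial PECAM1, TEK and ERG were at or near 0. KDR was at 1.20 ± 0.135 and 1.02 ± 0.191 FPKM and CDH5 at 0.119 ± 0.0335 and 0.0973 ± 0.0250, both with overlap. ITGA2B was lower in rhChemerin with the values above, and the part of these markers in the VWF value was not tested. F12 (2.40 ± 0.712 and 1.27 ± 0.399 FPKM) and F8 (0.254 ± 0.0189 and 0.204 ± 0.0464 FPKM) were lower without overlap in FPKM, but overlapped after TMM scaling. F12 also shares 399 exon bases with GRK6 on the opposite strand, which cannot be told apart if strand was not used in counting.

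Tissue factor (F3), the membrane protein that starts coagulation, varied more between libraries than between groups. It was at 11.5, 14.6 and 28.6 FPKM in Control and at 9.62, 17.2 and 54.2 in rhChemerin, with replicate 3 the highest library of each group. Its log2 fold change of 0.75 (SE 0.66, edgeR adjusted p = 0.512) became -0.36 without rhChemerin replicate 3 and 1.23 without Control replicate 3. FGG, a fibrinogen chain, was at 0.541 ± 0.264 and 0.719 ± 0.751 FPKM, and the other fibrinogen chain listed, FGB, was under a mean count of 20. TFPI, the Kunitz inhibitor of tissue factor with factor VIIa, was steadier, at 13.8, 13.02 and 12.6 FPKM in Control and 15.2, 22.5 and 23.1 in rhChemerin. Its groups did not overlap (log2 fold change 0.77, SE 0.19, edgeR adjusted p = 0.103, from 0.00512 with DESeq2 to 0.377), and the value was 0.61 without rhChemerin replicate 3. The level of TFPI relative to F3 was 1.20, 0.891 and 0.441 in Control and 1.58, 1.31 and 0.427 in rhChemerin, so the ratios overlapped and were lowest in replicate 3 of each group.

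Among the thrombin receptors, F2R (PAR1) was at 33.7 ± 2.62 FPKM in Control and 24.8 ± 3.36 in rhChemerin, lower without overlap in FPKM and overlapping after TMM scaling (log2 fold change -0.31, SE 0.14). The value was -0.18 without rhChemerin replicate 1 and -0.44 without rhChemerin replicate 3. F2RL2 (PAR3), a cofactor for thrombin signalling, was weak with 19 to 105 counts, at 0.615, 0.761 and 0.857 against 0.146, 0.227 and 0.323 FPKM. Its groups stood well apart (log2 fold change -1.53, SE 0.40, edgeR adjusted p = 0.112, from 0.00828 with DESeq2 to 0.377), and the value without rhChemerin replicate 3 was -1.91. F2RL3 (PAR4) was under a mean count of 20.

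The remaining anticoagulants split as well. PROCR, the endothelial protein C receptor, was at 25.7 ± 8.44 and 25.2 ± 3.39 FPKM, and PROS1, the protein S cofactor, at 20.5 ± 4.04 and 18.6 ± 7.13 FPKM, both with overlap. SERPINA1 was at 1.00 ± 0.540 and 0.605 ± 0.162 FPKM. Thrombomodulin (THBD), which turns thrombin into an activator of protein C, ranged from 2 to 303 counts, at 0.0140, 0.114 and 0.302 FPKM in Control and at 0.110, 0.252 and 2.01 in rhChemerin. Its log2 fold change of 2.65 (SE 1.27, edgeR adjusted p = 0.257) was 0.42 without rhChemerin replicate 3, which alone held most of its counts. PROC, the zymogen of that same protein C, had 25, 11 and 21 counts in Control and 4, 1 and 9 in rhChemerin. These did not overlap (log2 fold change -1.91, SE 0.75, edgeR adjusted p = 0.197), but PROC passed the filter through the Control libraries alone.

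The plasminogen activation genes varied widely between libraries of the same group. SERPINB2 (plasminogen activator inhibitor 2, chr18:63871692-63903890, plus strand) was at 4.24, 7.12 and 7.01 FPKM in Control and at 2.99, 26.6 and 105 in rhChemerin. Its rhChemerin libraries ran from 260 to 8881 counts and so held both the lowest and the highest value (log2 fold change 3.07, SE 1.07, edgeR adjusted p = 0.164, and 1.37 without rhChemerin replicate 3). SERPINF2, the inhibitor of plasmin itself, was near the detection limit at 0.277 ± 0.180 and 0.161 ± 0.134 FPKM.

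The activators showed the same unevenness. PLAT (tissue-type activator, chr8:42175233-42207724, minus strand) was at 14.3, 18.1 and 43.1 FPKM in Control and at 18.1, 54.8 and 106 in rhChemerin (log2 fold change 1.41, SE 0.67, edgeR adjusted p = 0.256, and 0.63 without rhChemerin replicate 3). PLAU (urokinase, chr10:73909177-73917497, plus strand) was at 14.5, 21.4 and 29.6 against 8.02, 14.0 and 52.0 FPKM. For PLAU the direction depended on 1 library, with a log2 fold change of 0.36 (SE 0.67, edgeR adjusted p = 0.768) over all libraries, -0.90 without rhChemerin replicate 3, and 0.78 without rhChemerin replicate 1. Of its 2950 exon bases, 916 lie opposite C10orf55, whose reads cannot be told apart if strand was not used. PLAUR (urokinase receptor, chr19:43646095-43670547, minus strand) was at 17.0, 20.6 and 28.2 against 16.5, 43.8 and 74.2 FPKM (log2 fold change 1.20, SE 0.51, edgeR adjusted p = 0.219, and 0.55 without rhChemerin replicate 3). Its rhChemerin replicate 1 lay below Control in FPKM, but just above Control replicate 1 after TMM scaling. No member of this group was free of overlap.

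PLAT relative to PLAU was 0.986, 0.844 and 1.45 in Control and 2.26, 3.91 and 2.03 in rhChemerin. These ratios did not overlap, whereas each activator alone did. The comparison of PLAT with PLAU was made after the values of both were seen.

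**Figure D3:**
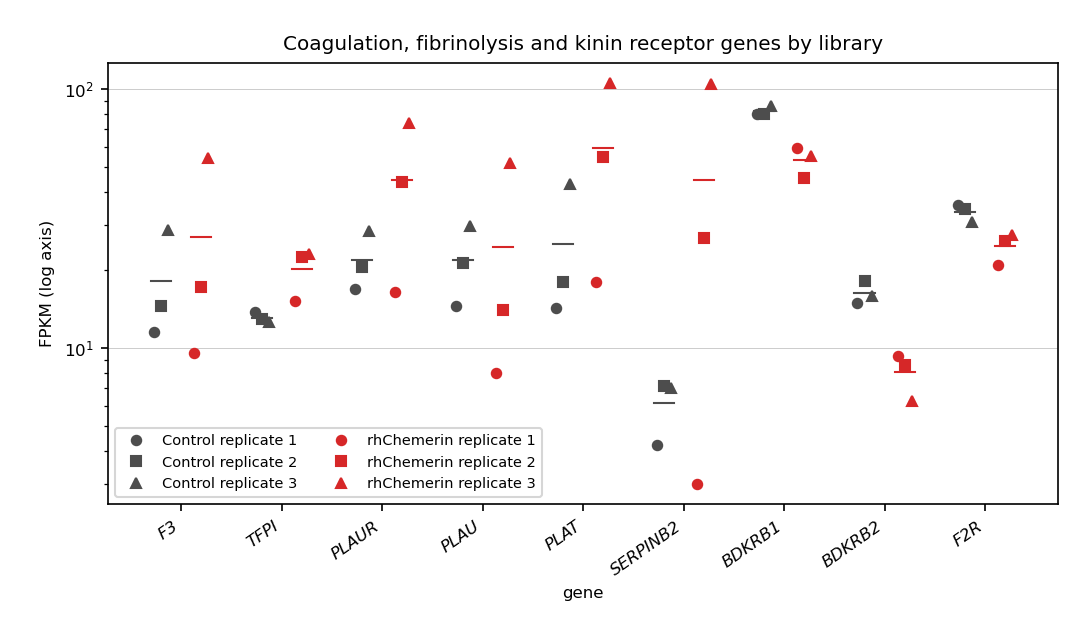
FPKM (log axis) of 9 coagulation, fibrinolysis and kinin receptor genes in each library, with Control in grey, rhChemerin in red, a marker shape for each replicate number and a line at each group mean. PLAT, PLAUR, PLAU and F3 are highest in replicate 3 of both groups, whereas TFPI, BDKRB1 and BDKRB2 keep the groups apart.

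Across the 37 members shown in the plot by role, rhChemerin replicate 3 was the highest library for 8 (CD59, F3, PLAT, PLAU, PLAUR, SERPINB2, TFPI and THBD) and the lowest for 18. For 6 of those 8, Control replicate 3 was the highest Control library too, all but SERPINB2 and TFPI. These 8 members include both plasminogen activators and the urokinase receptor. The share of all genes with rhChemerin replicate 3 as the highest or lowest library is not given here. The counts are therefore not read as a trait of the members. Within the rhChemerin group, the FPKM of replicate 3 over that of replicate 1 came to 35.02 for SERPINB2, 18.3 for THBD, 6.48 for PLAU, 5.84 for PLAT, 5.63 for F3 and 4.49 for PLAUR, and to 0.858 for C3.

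**Figure D4:**
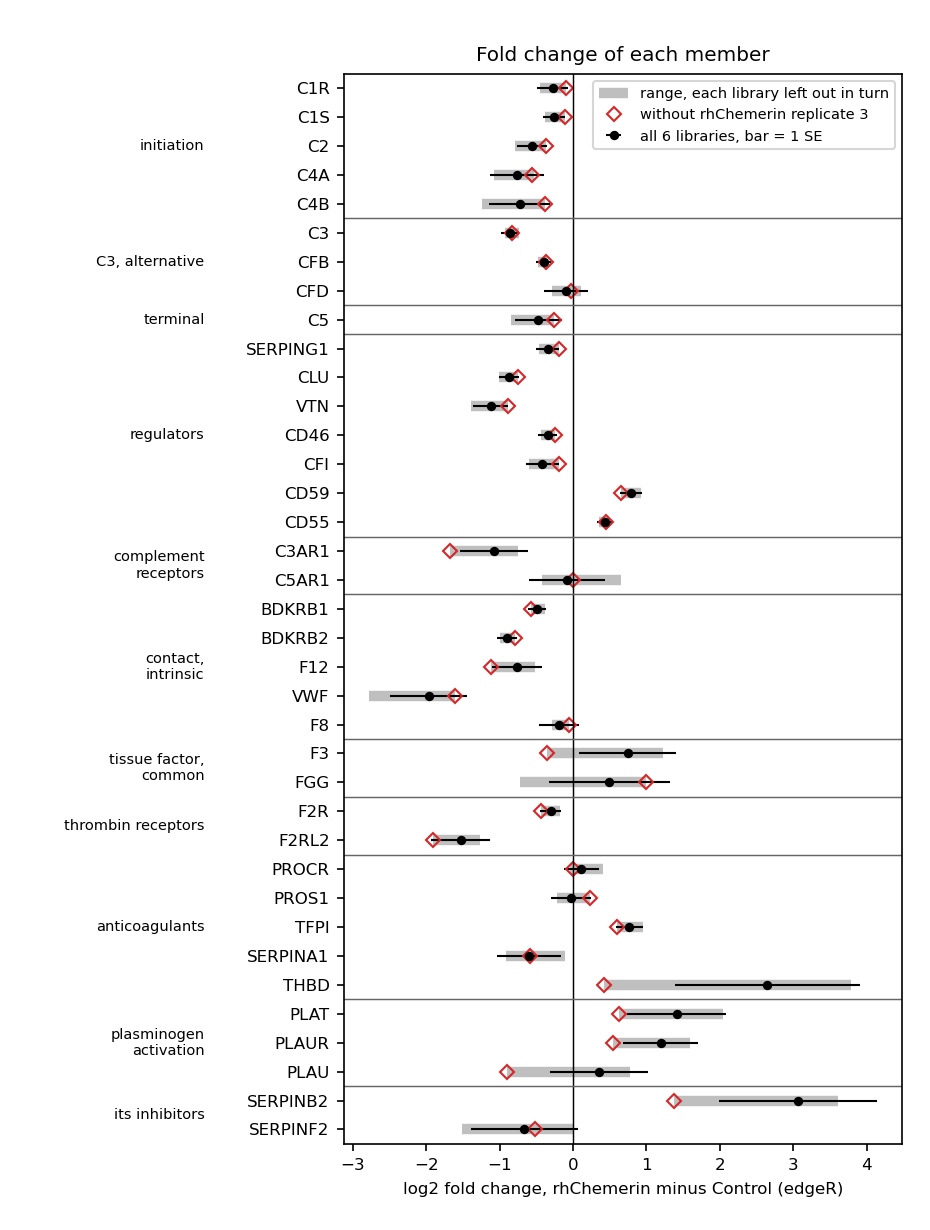
Log2 fold change (rhChemerin minus Control, edgeR) of 37 members with a mean count of at least 20, with bars of 1 SE, a grey band for the range with each library left out in turn, and a diamond for the value without rhChemerin replicate 3. The band is narrow for C3 (-0.93 to -0.74) and CD55 (0.35 to 0.48) and crosses 0 for PLAU (-0.90 to 0.78) and F3 (-0.36 to 1.23).

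To show the sequence before the genes that were highest in rhChemerin replicate 3, the 250 bases before each RefSeq start (GRCh38.p14) were searched on both strands for TGANTCA, the letters that AP-1 factors (FOS and JUN) bind. The motif was chosen after the values were seen. The table held 42 of the 60 members, 6 of which had a match, beside 6.57% of all 35116 windows and 10.7% of the members' 56 windows. The members with a match were C3AR1, CD59, F2RL2, F3, PLAUR and SERPINB2. Of the members highest in rhChemerin replicate 3, PLAU and TFPI had none, and PLAT and THBD were not in the table. Because these members and the motif were picked on the same values, the matches are no test of a link between them. The TATA box letters TATAAA occurred in 5 members, 8.93% of the members' windows beside 10.7% of all windows. A match is a description of letters and not a site. The stretches below, which leave out bases that GENCODE places in exons, show the matches in capitals for the 3 genes where they lie outside exons, F3 at chr1:94541801-94542009 (minus strand), SERPINB2 at chr18:63887455-63887699 (plus strand, before a start that lies inside the GENCODE gene) and CD59 at chr11:33722728-33722916 (minus strand, likewise before an internal start).
F3: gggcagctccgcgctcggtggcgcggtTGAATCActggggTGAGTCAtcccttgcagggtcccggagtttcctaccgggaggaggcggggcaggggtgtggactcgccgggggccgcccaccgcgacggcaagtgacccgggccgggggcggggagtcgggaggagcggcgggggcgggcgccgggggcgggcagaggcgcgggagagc
SERPINB2: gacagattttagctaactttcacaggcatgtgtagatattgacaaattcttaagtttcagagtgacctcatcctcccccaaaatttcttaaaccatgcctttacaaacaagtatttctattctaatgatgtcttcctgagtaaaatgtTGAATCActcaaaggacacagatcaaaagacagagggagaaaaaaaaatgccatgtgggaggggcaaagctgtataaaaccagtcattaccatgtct
CD59: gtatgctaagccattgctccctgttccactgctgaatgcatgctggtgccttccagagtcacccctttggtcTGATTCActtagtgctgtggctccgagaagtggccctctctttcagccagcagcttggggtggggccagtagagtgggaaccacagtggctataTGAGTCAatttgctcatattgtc
In F3 the matches begin 223 and 210 bases before the start, in SERPINB2 102 bases before it, and in CD59 117 and 23 bases before it.

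Of 20 related genes with a row outside the pathway (chemerin, its receptors, binders of plasminogen, and modifiers or relatives of the cascade proteins), 18 were tested, 8 with a lower and 10 with a higher value in rhChemerin. DESeq2 called 1 of them lower (RARRES2) and 3 higher (GPR1, ANXA2 and TFPI2), for which the edgeR adjusted p lay between 0.0692 and 0.108. RARRES2, the gene of chemerin, was at 28.9, 29.7 and 37.5 FPKM in Control and 13.7, 9.86 and 13.1 in rhChemerin (log2 fold change -1.26, SE 0.18, edgeR adjusted p = 0.0692). GPR1, a chemerin receptor also named CMKLR2, was at 1.90, 1.95 and 2.28 against 3.53, 3.08 and 3.77 FPKM (log2 fold change 0.90, SE 0.19). CMKLR1, the other signalling receptor, was weak, with at most 25 counts in a library. ANXA2, which with S100A10 holds plasminogen and PLAT at the cell surface, was at 219, 193 and 208 against 304, 323 and 355 FPKM without overlap (log2 fold change 0.80, SE 0.13, edgeR adjusted p = 0.0707). TFPI2, a matrix-bound Kunitz inhibitor of plasmin, was at 9.44, 9.38 and 11.9 against 12.9, 56.6 and 104 FPKM. Its groups did not overlap (log2 fold change 2.67, SE 0.68, edgeR adjusted p = 0.108), and every rhChemerin library lay above Control. C1RL, a relative of C1R with which C1R shares 672 exon bases, was lower without overlap (43.1 ± 3.25 and 26.9 ± 12.3 FPKM). C1QBP, a binder of C1q and kininogen, was at 75.4, 76.2 and 91.9 FPKM in Control and 90.6, 91.1 and 140 in rhChemerin. Its groups (81.2 ± 9.29 and 107 ± 28.4 FPKM) overlapped in FPKM, but rhChemerin was higher without overlap after TMM scaling. The log2 fold change was 0.55, and 0.24 to 0.68 with each library left out.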

How the data were processed

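RNA of 6 libraries (3 Control, 3 rhChemerin) had been sequenced from a VAHTS Universal V6 kit. Per the study's methods and the submitters' processing notes, the authors trimmed reads with fastp, aligned them with HISAT2 to GRCh38.p13 and counted them per gene with HTSeq. Strand setting and annotation release are not given in the sources used here. The authors deposited counts without normalization and, in a second table, FPKM. The ratio of FPKM to count per library total differed by under 0.1% between libraries for 100.0% of the genes compared. Only values of at least 20 counts entered this comparison, and gene lengths were not checked.

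The counts went into edgeR 4.0.16 in R 4.3.3 (TMM factors, filterByExpr with the group, quasi-likelihood test, Benjamini-Hochberg over 13311 genes). FPKM served for levels. log2 fold changes come from the edgeR fit on the deposited counts, with log2(FPKM + 1) and log2(FPKM + 0.1) tested in limma 3.58.1 and counts in DESeq2 1.42.0 as alternatives, beside other scalings, filters, the replicate number as a block and each library left out. DESeq2 with each library left out was added after seeing the data. The fits were tested on simulated data. Groups were called not overlapping on TMM-scaled CPM.

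With 3 libraries against 3, an exact two-sided permutation test cannot go below p = 0.1. 1 count in the smallest library is 0.0282 CPM. Gene positions and shared exon bases are from GENCODE release 29 (GRCh38), and promoter sequences from RefSeq (GRCh38.p14).

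The members, roles and related gene and marker lists were chosen with earlier results of these data known. By rule, members with a mean count of at least 20 are named where reported, and values in every library are given for members called by edgeR or DESeq2, those with an absolute log2 fold change above 1 and no overlap, the 8 of highest mean FPKM, and the plasminogen activators, their receptor and their inhibitors. Related genes are named where called, or without overlap at an absolute log2 fold change above 0.5. C2, CD46, F3, THBD and CMKLR1 are given in more detail than the rule asks, chosen after their values were seen. CD3E, PF4, PPBP, TTR, CPN1 and CPN2 had no row under these names in the count table and so have no values. Some members of the pathway enter the counts and medians but are not reported here.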

Additional observations from a re-analysis of the deposited data

How the results depend on the processing

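The number of members called was 0 by edgeR, also with RLE factors, library size alone, no filter, a mean count of at least 20 and the replicate block. It was 11 with DESeq2 and 4 with limma on log2(FPKM + 1), and 0 to 10 with each library left out. Genes called of all tested went from 4 to 17 without the filter, 1319 with DESeq2, 179 and 23 with limma on log2(FPKM + 1) and log2(FPKM + 0.1), and 0 to 844 with each library left out. The median of the members moved from -0.34 to -0.46 with library size alone, -0.29 and -0.49 with limma on log2(FPKM + 1) and log2(FPKM + 0.1), and lay between -0.45 and -0.29 with each library left out. Members lower without overlap numbered 12 to 16 by the other settings (14.3% to 25.2% of all genes) and 13 to 19 with each library left out (18.0% to 25.4%), since fewer libraries overlap less. Members higher without overlap numbered 3 (7.35% to 16.5%) and 3 to 7 (18.5% to 24.4%). DESeq2 called 11 members, and 5 to 16 with each library left out. The lowest was without Control replicate 2 (2.23% of all genes called) and the highest without rhChemerin replicate 1 (19.4%), so the members' count moved with that of all genes. Of the members that the naming rule picked for full values, only PLAU reversed: its log2 fold change was 0.36, -0.19 and -0.22 with limma on log2(FPKM + 1) and log2(FPKM + 0.1), -0.088 with the replicate block, and -0.90 to 0.78 with each library left out. In the other comparisons of such a member with an alternative, 258 stayed on the same side of the threshold and 31 passed it where the edgeR fit did not. The cause of these changes was not tested. The labels do not say whether the replicate numbers pair the libraries, and pairing was not tested. Correlations of same-numbered deviations were 0.244, 0.0010 and 0.249, beside -0.308 to 0.105 for libraries with different numbers. With the number as a replicate block edgeR called 0 members and 1 gene in all, and the median of the members was -0.36. Depth limits the members under a mean count of 20.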
